A study of Rattus norvegicus with 10 samples.

Results

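The transcripts of 9 genes were followed by RNA-seq in slices of rat hippocampus from which area CA1 had been dissected. These genes encode or cut the amyloid precursor protein, break down or bind the amyloid-beta peptide, or are linked to Alzheimer's disease by inherited risk or by tau. The members were chosen by symbol, as App, Bace1, Psen2, Ncstn, Adam10, Apoe, Mapt, Bin1 and Ide, and each matched 1 row of the 32545 genes counted. All 9 passed the filter on low counts, with 15032 genes in all. Apoe was the 1 member that passed the test in any comparison: it was 1.87-fold lower in SKF+Aβ than in SKF, and that call was lost when single libraries were left out.

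The series held 10 libraries in 5 groups of 2, made from slices of adult male Wistar rats aged 5 to 7 weeks. Slices of the SKF group received SKF, an agonist of the D1/D5 dopamine receptors that activates cAMP signaling at many synapses at once. SKF+Aβ slices also received oligomers of the amyloid-beta peptide at 200 nM. SKF+Aβ+CSP slices had these agents and the bare glucose-derived carbon nanosphere (CSP) at 0.36 µg/ml, and SKF+Aβ+CSP-TTK21 slices had the same peptide with the nanosphere carrying TTK21 at the same particle dose. TTK21 is a small molecule that activates CBP and p300, enzymes that acetylate histones. The last group received CSP-TTK21 with neither SKF nor Aβ, so its comparison with SKF changes both agents at once. All slices had 30 min of basal stimulation and were collected 1 h after treatment, and each library pooled slices from 2 biological samples, so animals cannot be seen singly. Aβ was added to the slices as a ready-made peptide, so the groups model a short exposure to outside Aβ. An untreated group is not analysed here.

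The amyloid precursor protein, encoded by App, is a membrane protein of neurons that 2 competing routes of cutting process. Cleavage by α-secretase, of which ADAM10 is the main neuronal enzyme, falls within the Aβ sequence. Cleavage by β-secretase, BACE1, followed by γ-secretase, a complex that holds a presenilin (here Psen2) and nicastrin (Ncstn), releases Aβ. Insulin-degrading enzyme (Ide) breaks down soluble Aβ, and apolipoprotein E (Apoe), made in brain mainly by astrocytes and also by microglia, carries lipid and binds Aβ. Tau (Mapt) stabilizes microtubules in axons, and Bin1 encodes a membrane-bending protein of endocytosis that lies at a risk locus.

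Sequences upstream of the annotated starts were taken from RefSeq (build GRCr8), where 8 of the 9 members had 1 window or more and Mapt had none. They are shown because SKF and TTK21 act on a pathway that ends at CREB, whose partner is CBP, and CREB binds sites that contain the letters TGACG. Those letters, or CGTCA on the other strand, were found within the 250 bases before the start in 2 of the 8 members, Ncstn and Adam10, and in 18.2% of the 33469 windows of that length in the table. The GC box GGGCGG, or CCGCCC on the other strand, was in 5 of the 8 and in 30.5% of all windows. The first sequence below is that of Apoe, the member that passed the test, at the middle of its 3 annotated starts, and the other two are those of Ncstn and Adam10. Capitals mark either motif, and the longer run of capitals in Adam10 is a pair of overlapping GC boxes. Each line reads 5′ to 3′ towards the start.
Apoe (chr1:88484700-88484949, - strand): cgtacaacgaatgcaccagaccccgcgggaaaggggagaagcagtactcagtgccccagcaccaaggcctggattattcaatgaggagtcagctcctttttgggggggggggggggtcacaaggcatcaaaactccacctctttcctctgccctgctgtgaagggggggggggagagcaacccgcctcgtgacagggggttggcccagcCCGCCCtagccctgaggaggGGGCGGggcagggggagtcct
Ncstn (chr13:87078840-87079089, - strand): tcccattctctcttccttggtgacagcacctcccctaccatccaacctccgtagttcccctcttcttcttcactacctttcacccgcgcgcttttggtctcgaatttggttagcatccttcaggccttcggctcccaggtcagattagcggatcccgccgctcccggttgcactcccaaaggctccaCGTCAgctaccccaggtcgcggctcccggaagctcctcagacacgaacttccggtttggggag
Adam10 (chr8:80226612-80226861, + strand): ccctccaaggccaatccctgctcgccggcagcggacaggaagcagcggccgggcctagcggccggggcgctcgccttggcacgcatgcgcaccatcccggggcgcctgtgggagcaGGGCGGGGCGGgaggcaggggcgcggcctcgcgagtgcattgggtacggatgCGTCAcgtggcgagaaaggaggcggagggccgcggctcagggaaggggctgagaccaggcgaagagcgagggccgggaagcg
The Apoe window held GC boxes on both strands and no TGACG. A match is a description of the letters, and no binding was measured.

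Library totals ran from 6753742 to 8473407 counts, and members were read 115 or more times in every library. Levels are given as normalized CPM, counts scaled to a common library size and composition, and are not compared between genes because transcript lengths were not used. Differences are log2 fold changes from edgeR's quasi-likelihood test over all 10 libraries. A gene passed the test at an adjusted p under 0.05 (Benjamini-Hochberg, over 15032 genes). The study's further limit, a log2 fold change beyond 1.5, was passed by 0 members and 0.146% of genes tested in SKF+Aβ vs SKF. Markers of CA1 pyramidal neurons summed to between 292 and 635 CPM, markers of CA3 to between 322 and 468 and of dentate granule cells to between 204 and 303 CPM. Prox1, which carried most of the dentate sum, and the CA3 markers Cpne4 and Grik4 are not exclusive to those neurons, and which cells the reads came from was not tested. Fibcd1, a CA1 marker, was at 0 in every library, as were Cldn5 (endothelium) and Col1a2 (fibroblasts).

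Apoe varied most of the 9 members. Its level in SKF was 2069 and 2574 CPM in the 2 libraries. In SKF+Aβ it was 1117 and 1372 CPM. In SKF+Aβ+CSP it was 1338 and 1062 CPM. All 4 libraries that had Aβ without TTK21 lay below both SKF libraries. With CSP-TTK21 added to SKF+Aβ, Apoe was at 1432 and 2118 CPM, one library close to the Aβ libraries and the other within the SKF range. CSP-TTK21 alone gave 1774 and 2149 CPM. From the lowest to the highest library Apoe spanned 1.28 on the log2 scale, a wider span than that of 97.9% of the 7818 genes with 100 counts or more in every library.

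**Figure D1:**
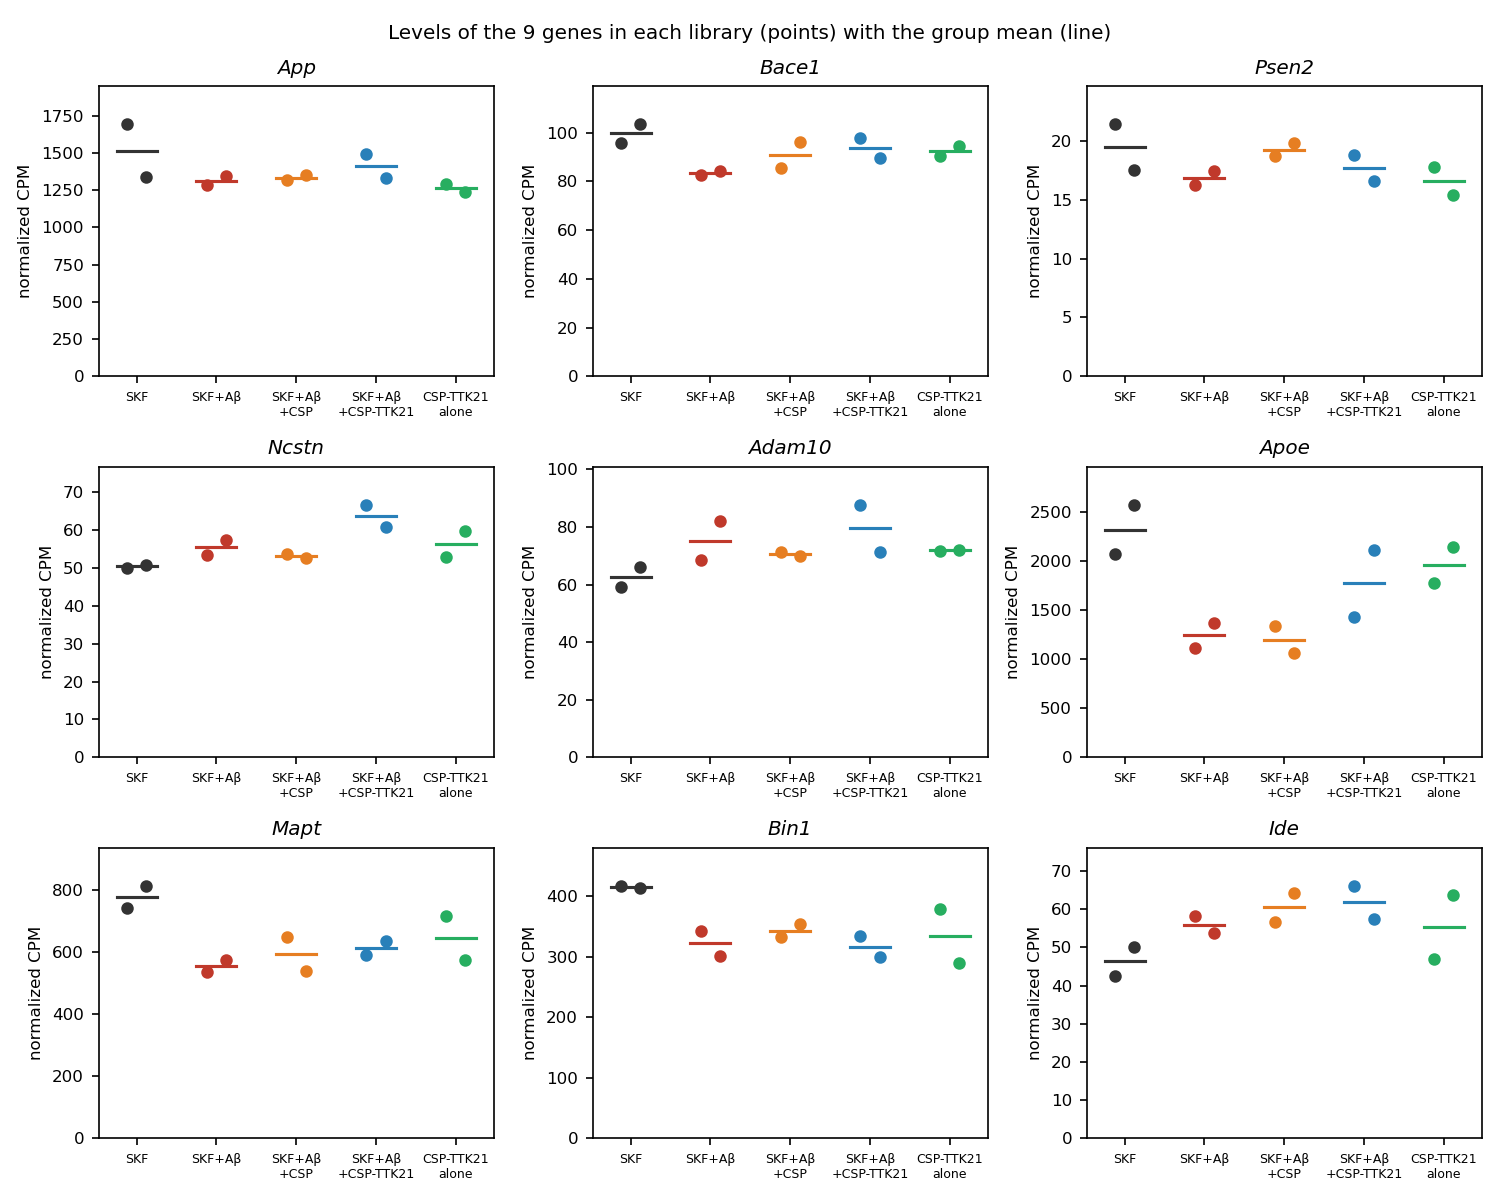
Normalized CPM (vertical axes, from 0) of each of the 9 genes in the 5 groups, with 1 point per library and a line at the group mean (n = 2). Apoe lies between 2069 and 2574 in SKF and between 1062 and 1372 in the SKF+Aβ and SKF+Aβ+CSP libraries, while the levels of App and Bace1 stay within narrow ranges.

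The comparison of SKF+Aβ vs SKF asks what Aβ changes in SKF-activated slices. Apoe fell from 2322 ± 357 CPM to 1244 ± 181 CPM (SD, n = 2), a log2 fold change of -0.90 (SE 0.20, 95% interval -1.33 to -0.47). Its adjusted p was 0.0431 in edgeR's test, where 2.08% of all genes tested passed and 0.852% passed lower. The call was lost without either SKF library, without either SKF+Aβ library and without either SKF+Aβ+CSP library, with adjusted p for Apoe between 0.0629 and 0.185, and with only the 4 libraries compared (adjusted p 0.0833). Its log2 fold change stayed between -1.07 and -0.73 in these fits.

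Mapt and Bin1 were also lower in every SKF+Aβ library than in either SKF library, without passing the test. Mapt was at 742 and 814 CPM in SKF and 538 and 575 CPM in SKF+Aβ, a log2 fold change of -0.48 (SE 0.14, adjusted p 0.0808). DESeq2 called it, with an adjusted p of 0.0242. Bin1 was at 417 and 414 CPM in SKF and 343 and 302 CPM in SKF+Aβ, a log2 fold change of -0.37 (SE 0.14, adjusted p 0.148). Apoe, Mapt and Bin1 were the 3 members with an unadjusted p under 0.05, beside 22.8% of all genes, and 10.9% of all genes in the lower direction.

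The enzymes that cut the precursor, and the precursor itself, differed by small amounts between SKF+Aβ and SKF. App was at 1694 and 1335 CPM in SKF and at 1282 and 1345 in SKF+Aβ, and the 2 groups overlapped (log2 fold change -0.21, 95% interval -0.50 to 0.09). Bace1 was at 95.9 and 104 CPM in SKF and at 82.4 and 84.1 in SKF+Aβ, without overlap (log2 fold change -0.26, 95% interval -0.54 to 0.01). Over the 10 libraries Bace1 had the highest correlation of the 9 members with the summed oligodendrocyte markers (Pearson's r 0.71, a description), and those sums were also lower in SKF+Aβ, at 10998 and 15617 CPM against 16277 and 24021 in SKF. Their part in the Bace1 difference was not tested. Psen2, the member with the fewest counts, was at 21.4 and 17.5 CPM in SKF and at 16.2 and 17.4 in SKF+Aβ (log2 fold change -0.21, 95% interval -0.60 to 0.18). The intervals of App, Bace1 and Psen2 reach down to -0.50, -0.54 and -0.60, so differences of that size are not excluded. Without single libraries the value ran from -0.37 to -0.040 for App and from -0.35 to -0.073 for Psen2.

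Ncstn, Adam10 and Ide were the 3 members whose levels lay higher in SKF+Aβ. Ncstn was at 50.0 and 50.9 CPM in SKF and 53.5 and 57.2 in SKF+Aβ (log2 fold change 0.13, adjusted p 0.585 in edgeR's test). Adam10 was at 59.2 and 66.2 CPM in SKF and 68.4 and 82.0 in SKF+Aβ (0.26, adjusted p 0.305). Ide was at 42.6 and 50.2 CPM in SKF and 58.1 and 53.8 in SKF+Aβ (0.27, adjusted p 0.358). Without single libraries these values ran from 0.066 to 0.17 for Ncstn, from 0.11 to 0.37 for Adam10 and from 0.14 to 0.39 for Ide. Over the 9 members the 2 groups did not overlap in 8, where 49.6% of all genes did not overlap. The median log2 fold change of the members was -0.21, beside -0.0013 over all genes tested.

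**Figure D2:**
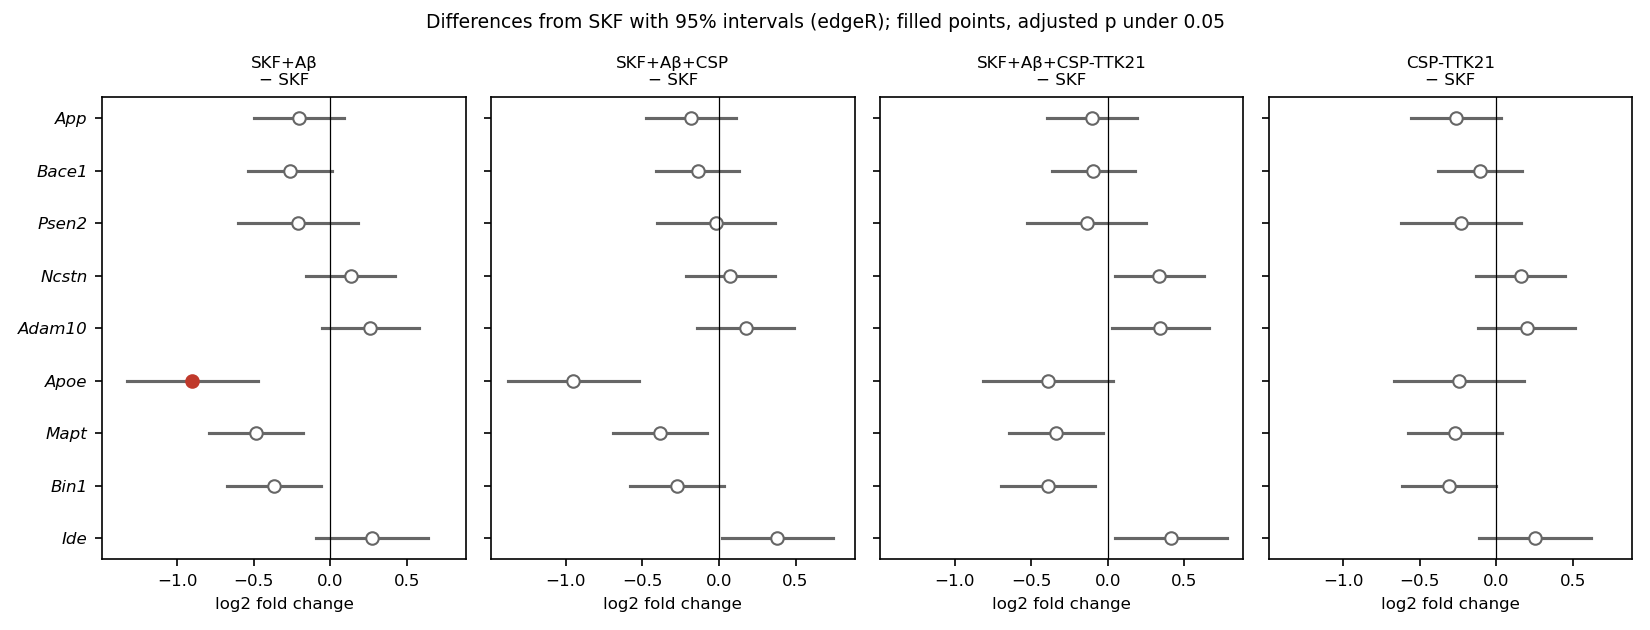
Log2 fold change of each gene (rows) from SKF in the 4 other groups (panels), with 95% intervals from edgeR's fit. The filled red point, Apoe in SKF+Aβ at -0.90, is the 1 value with an adjusted p under 0.05.

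With the bare nanosphere added, SKF+Aβ+CSP vs SKF gave the same order for Apoe. It was 1.93-fold lower (log2 fold change -0.95, SE 0.20, 95% interval -1.38 to -0.52), with an adjusted p of 0.0655, and 0.02% of all genes passed. The unadjusted p of Apoe in edgeR's test was 3.26e-04 here and 5.27e-04 in SKF+Aβ vs SKF, so passing does not rank these differences. By edgeR 0 members passed, 3 had an unadjusted p under 0.05 beside 19.3% of all genes, and limma called 0 and DESeq2 1, Apoe. Mapt was lower, at 650 and 541 CPM (log2 fold change -0.39, adjusted p 0.175), and Ide was at 56.6 and 64.3 CPM (0.38, adjusted p 0.241). The groups did not overlap in 6 of 9 members, where 52.4% of all genes did not.

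Adding the bare nanosphere to SKF+Aβ left all members close to their SKF+Aβ levels. Differences between SKF+Aβ+CSP and SKF+Aβ ran from -0.087 for Adam10 to 0.19 for Psen2 on the log2 scale, and the groups did not overlap in 2 members where 27.2% of all genes did not. For Apoe the difference was -0.05 (95% interval -0.48 to 0.37), so a change of that size in either direction is not excluded. By edgeR 0 members passed, 0 had an unadjusted p under 0.05 beside 2.18% of all genes, and limma and DESeq2 called 0.

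The comparisons with CSP-TTK21 ask whether the activator moves these genes in Aβ-treated slices. Apoe was higher in both SKF+Aβ+CSP-TTK21 libraries than in either SKF+Aβ library, by 0.51 on the log2 scale (SE 0.20, 95% interval 0.09 to 0.94), with an adjusted p of 0.746 in edgeR's test. Against SKF+Aβ+CSP, which has the same particle without TTK21, the difference was 0.56 (SE 0.20, 95% interval 0.14 to 0.99, adjusted p 0.556), and 2 members did not overlap where 46.3% of all genes did not. Neither difference passed the test. Both moved with the SKF+Aβ+CSP-TTK21 library left out: without the one at 2118 CPM they were 0.20 and 0.25, and without the library at 1432 CPM they were 0.77 and 0.82. In each of these comparisons Apoe was the 1 member with an unadjusted p under 0.05, beside 6.59% of all genes in the first and 8.78% in the second, and edgeR, limma and DESeq2 called 0 members.

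Apoe differed by -0.39 between SKF+Aβ+CSP-TTK21 and SKF (95% interval -0.81 to 0.04, adjusted p 0.298 in edgeR's test) and the libraries overlapped. Without single libraries this value ran from -0.72 to -0.13. CSP-TTK21 alone and SKF differed by -0.24 (95% interval -0.67 to 0.18), and by -0.40 to -0.075 without single libraries. The 4 comparisons with SKF share its 2 libraries, and those with SKF+Aβ share that group, so they are not independent of each other.

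Ncstn and Adam10, of the γ-secretase and the α-secretase, had their highest mean levels in SKF+Aβ+CSP-TTK21, while Psen2 had its highest in SKF. Ncstn was at 66.6 and 60.9 CPM there, above all 8 other libraries. It stood 0.34 above SKF on the log2 scale (SE 0.13, adjusted p 0.197 in edgeR's test), and 0.26 above SKF+Aβ+CSP (adjusted p 0.569). Adam10 was at 87.7 and 71.4 CPM, 0.34 above SKF (SE 0.15, adjusted p 0.221), and 0.19 to 0.47 above it without single libraries. Its second library lay above both SKF libraries and below the higher SKF+Aβ library, at 82.0 CPM. Ide, at 66.1 and 57.5 CPM, was 0.41 above SKF (SE 0.17, adjusted p 0.207). The 6 neuron markers, none at 0, summed to between 4347 and 4386 CPM in SKF+Aβ+CSP-TTK21 and to between 3496 and 4027 CPM in SKF, without overlap. The sums of the dentate, CA3 and meninges and fibroblast lists were also higher there than in SKF without overlap, and the endothelial sum was lower, at 56.9 to 63.5 CPM against 73.3 to 122 CPM. The neuron sum was 3775 to 4690 CPM in SKF+Aβ, 3921 to 4178 CPM in SKF+Aβ+CSP and 3659 to 3984 CPM in CSP-TTK21 alone. Of the 6, Snap25, Syt1 and Stmn2 lay above SKF without overlap in SKF+Aβ+CSP-TTK21, 3 of 6 where 26% of all genes did so. By edgeR's test 0 passed. The log2 fold changes of the 6 ran from -0.070 to 0.34 with a median of 0.13, so the list did not move as one. Pearson's r with the neuron sum over the 10 libraries was 0.60 for Ncstn, 0.56 for Adam10 and 0.37 for Ide. With the astrocyte sum it was 0.57, 0.22 and 0.35 in the same order. With the endothelial sum it was -0.68, -0.52 and -0.33, and with the dentate sum 0.40, 0.42 and 0.62. These are given as description, and the part of cell makeup in these differences was not tested.

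Mapt, at 593 and 638 CPM, and Bin1, at 335 and 299 CPM, stayed below SKF in SKF+Aβ+CSP-TTK21. The log2 fold changes were -0.34 for Mapt and -0.39 for Bin1 (SE 0.14 for each, adjusted p 0.215 and 0.171 in edgeR's test). Their Pearson's r with the neuron sum over the 10 libraries was -0.54 and -0.63, also given as description. Ncstn, Adam10, Ide, Mapt and Bin1 were the 5 members with an unadjusted p under 0.05 in SKF+Aβ+CSP-TTK21 vs SKF, beside 19.6% of all genes, while 0 passed after adjustment, as did 0.00665% of all genes. DESeq2 and limma called 0 there. The groups did not overlap in 5 of 9 members, where 50.5% of all genes did not.

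Bace1 was at 97.7 and 89.4 CPM with CSP-TTK21, 0.17 above SKF+Aβ (95% interval -0.11 to 0.44). App was at 1492 and 1329 CPM, 0.10 above SKF+Aβ (95% interval -0.19 to 0.40). Psen2 was at 18.8 and 16.5 CPM, 0.07 above SKF+Aβ (95% interval -0.32 to 0.47), and it was at -0.0027 with libraries scaled by their totals, a scaling that moved the median of all genes there from 0.01 to -0.064. Without single libraries the values ran from 0.11 to 0.22 for Bace1, from 0.020 to 0.18 for App and from -0.021 to 0.15 for Psen2. The median of the members in SKF+Aβ+CSP-TTK21 vs SKF+Aβ was 0.14, beside 0.01 over all genes, and the groups did not overlap in 4 members where 35.9% of all genes did not.

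**Figure D3:**
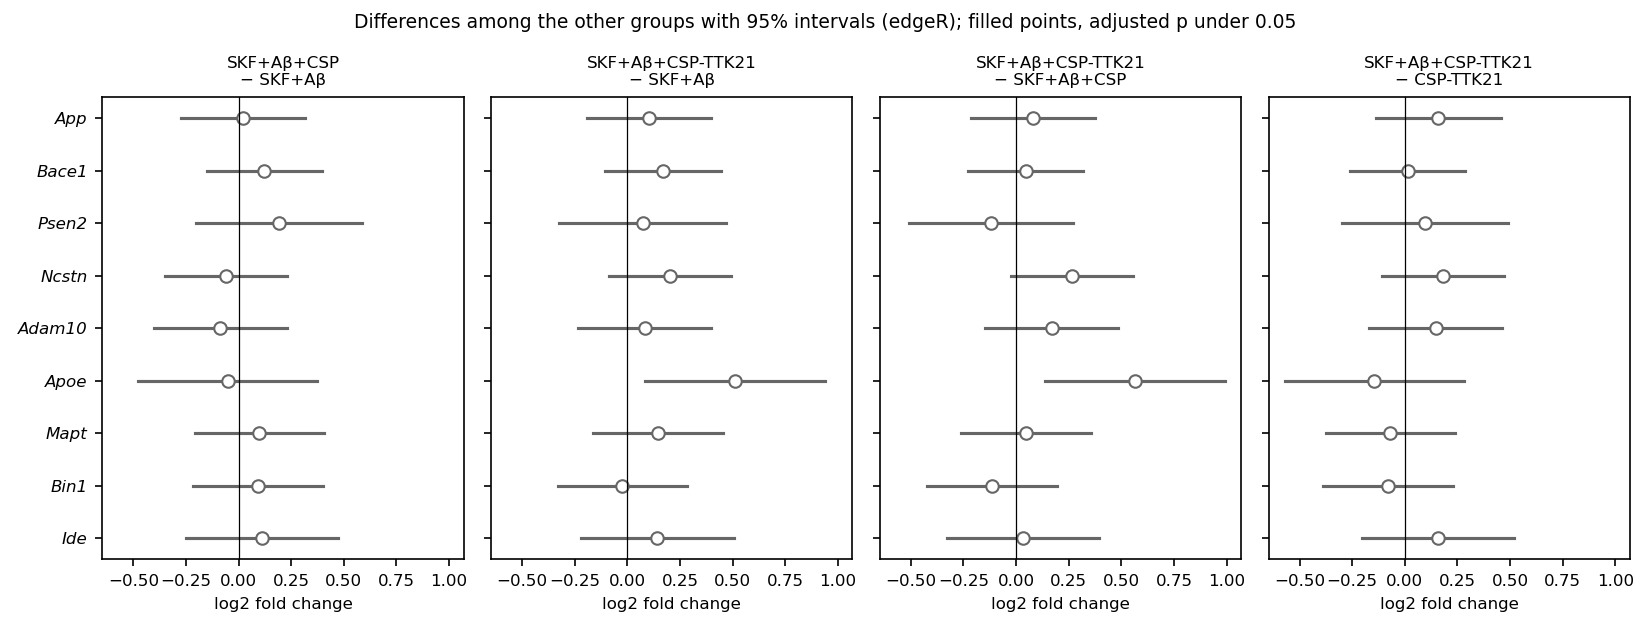
Log2 fold change of each gene (rows) in the 4 comparisons among the groups other than SKF (panels), with 95% intervals from edgeR's fit. Apoe lies at 0.51 and 0.56 where CSP-TTK21 is set against SKF+Aβ and SKF+Aβ+CSP, and open points mark that no value had an adjusted p under 0.05.

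CSP-TTK21 alone was tested against SKF and against SKF+Aβ+CSP-TTK21. Against SKF, App was at 1291 and 1234 CPM (log2 fold change -0.26, 95% interval -0.56 to 0.03), and Bin1 at 379 and 290 CPM (-0.31, adjusted p 0.633 in edgeR's test). Without single libraries these ran from -0.42 to -0.086 for App and from -0.53 to -0.13 for Bin1. Bin1 was the 1 member with an unadjusted p under 0.05, beside 7.78% of all genes, and edgeR, DESeq2 and limma called 0 members. The groups did not overlap in 6 members, where 36.1% of all genes did not. Against CSP-TTK21 alone, differences in the combined treatment ran from -0.14 for Apoe to 0.18 for Ncstn (-0.46 to 0.11 and 0.096 to 0.27 without single libraries), 0 members had an unadjusted p under 0.05 beside 4.18% of all genes, and the 3 tools called 0. The groups did not overlap in 2 members, where 33.6% of all genes did not.

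A test for any difference among the 5 groups gave 0 members after adjustment, beside 0.00665% of all genes. DESeq2 called 1, Apoe. Apoe had the smallest p of the members, rank 79 of 15032 (adjusted p 0.189 in edgeR's test), and Mapt followed at rank 1817 (adjusted p 0.329). They were the 2 members with an unadjusted p under 0.05, beside 14.3% of all genes.

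Apoe comes mainly from glia, so glial markers were read beside it. In bulk tissue, fewer cells of a type and less RNA per cell cannot be told apart. The 7 astrocyte markers, none at 0, summed to between 4106 and 5526 CPM in SKF and to between 4353 and 4401 CPM in SKF+Aβ, within the SKF range. In SKF+Aβ+CSP the sum was 3970 to 4352 CPM, in SKF+Aβ+CSP-TTK21 5218 to 5533 CPM, and in CSP-TTK21 alone 4263 to 5964 CPM. Of the 7, Aldh1l1 and Aldoc lay lower in SKF+Aβ than in SKF without overlap, 2 of 7 where 24.3% of all genes tested did so, and 0 lay higher without overlap. Aldoc, an aldolase of astrocytes, was at 694 and 816 CPM in SKF and at 428 and 601 in SKF+Aβ. The log2 fold changes of the 7 ran from -0.55 to 0.21, so they did not all fall.

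The 7 microglia markers, none at 0, summed to between 139 and 235 CPM in SKF and to between 148 and 183 CPM in SKF+Aβ. In SKF+Aβ+CSP the sum was 141 to 164 CPM, in SKF+Aβ+CSP-TTK21 171 to 239 CPM, and in CSP-TTK21 alone 182 to 224 CPM. C1qa, a complement subunit made by microglia, was the 1 of 7 that lay lower without overlap in SKF+Aβ than in SKF, at 12.6 and 14.9 CPM against 23.6 and 39.2, a share below the 24.3% of all genes. The 7 oligodendrocyte markers, none at 0, summed to between 16277 and 24021 CPM in SKF and 10998 to 15617 CPM in SKF+Aβ, without overlap of the sums. Of the 7, 4 lay lower without overlap, beside the same 24.3% of all genes and with no test of the list. The sums were 17392 to 17763 CPM in SKF+Aβ+CSP, 14903 to 25078 CPM in SKF+Aβ+CSP-TTK21 and 15004 to 15277 CPM in CSP-TTK21 alone.

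The oligodendrocyte list had the lowest median log2 fold change of the 10 marker lists in SKF+Aβ vs SKF, -0.63, and the meninges and fibroblast list the highest, 0.48. The medians of the microglia and astrocyte lists were -0.22 and -0.085. In SKF+Aβ+CSP-TTK21 vs SKF+Aβ the medians were 0.51 for oligodendrocytes, 0.45 for microglia, 0.31 for astrocytes and -0.41 for the 4 endothelial markers tested. Set against SKF+Aβ+CSP instead, where Apoe differed by 0.56, the medians of this group were 0.12 for oligodendrocytes, 0.55 for microglia, 0.42 for astrocytes and -0.84 for endothelium. In that comparison 6 of 7 astrocyte and 4 of 7 microglia markers lay higher without overlap, and 0 of 7 oligodendrocyte markers, where 23.5% of all genes did so. By edgeR 0 markers of these 4 cell types passed the test in the 3 comparisons. Over the 10 libraries, Pearson's r of Apoe with the summed markers was 0.64 for astrocytes, 0.71 for microglia and 0.16 for oligodendrocytes, values given as description for libraries that share their groups and scaling. The part of cell makeup in the Apoe difference was not tested.

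**Figure D4:**
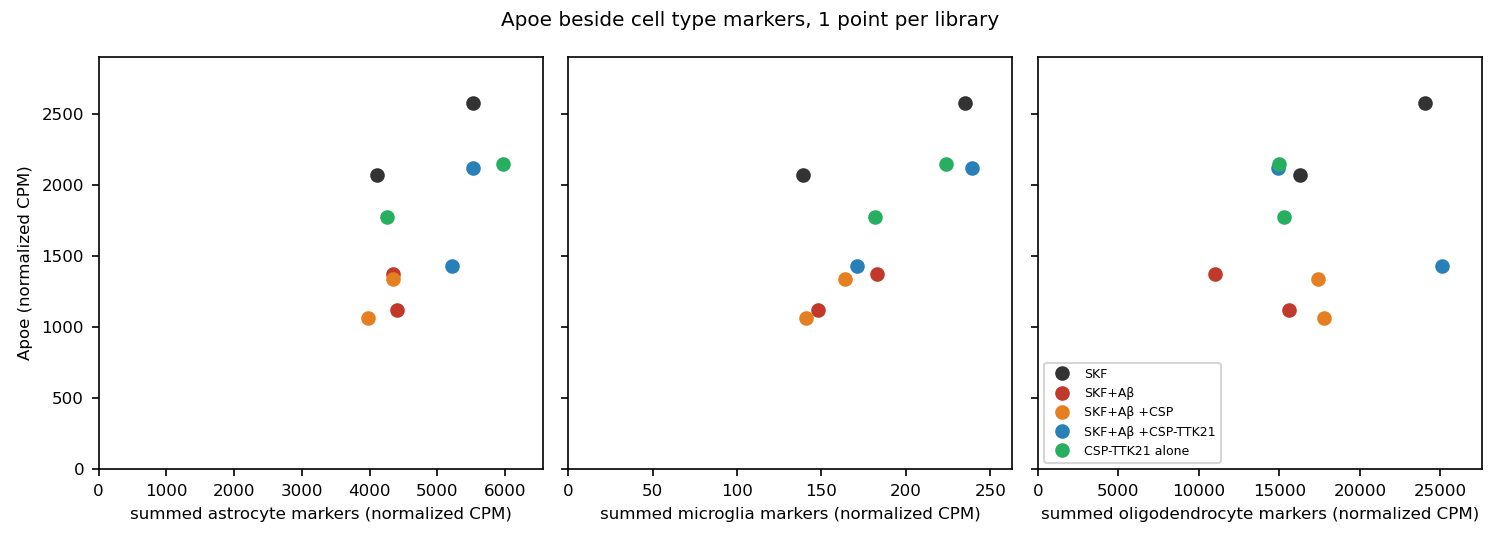
Apoe (vertical axis, normalized CPM) against the summed markers of astrocytes, microglia and oligodendrocytes (horizontal axes, normalized CPM), 1 point per library and colors for the 5 groups. SKF libraries lie above the SKF+Aβ libraries in Apoe, at 2069 and 2574 against 1117 and 1372, while the astrocyte and microglia sums of SKF+Aβ lie within the range of SKF and the oligodendrocyte sums of SKF+Aβ, at 10998 and 15617, lie below those of SKF, at 16277 and 24021.

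The rest of the pathway was read from 5 lists of 87 genes in all, of which 84 matched a symbol in the table and 81 were tested. By edgeR 0 of the 81 passed in any comparison. The unadjusted p was under 0.05 for 9 higher and 16 lower genes in SKF+Aβ vs SKF, 30.9% of the 81 beside 22.8% of all genes. In SKF+Aβ+CSP vs SKF it was 6 higher and 14 lower (24.7% beside 19.3%), and in SKF+Aβ+CSP-TTK21 vs SKF 9 higher and 7 lower (19.8% beside 19.6%). In the 5-group test 12 genes had an unadjusted p under 0.05, 14.8% beside 14.3% of all genes. Genes with the smallest 5-group p in each list are given next, 13 in all.

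Of 8 other secretase and APP-family genes tested, 1 was lower at an unadjusted p under 0.05 in SKF+Aβ vs SKF and 0 were higher. Over all genes tested 10.9% were lower and 12% higher at that threshold. Aplp1, which encodes a neuronal paralog of the precursor protein, was at 1211 ± 110 CPM in SKF and 862 ± 38.1 in SKF+Aβ (SD, n = 2), a log2 fold change of -0.49 with an adjusted p of 0.0760 in edgeR's test. It was at 1060 ± 82.6 CPM in SKF+Aβ+CSP-TTK21. Psenen, which encodes another part of γ-secretase, was at 22.6 and 29.1 CPM in SKF+Aβ and at 33.6 and 37.6 in SKF+Aβ+CSP-TTK21 (log2 fold change 0.46, adjusted p 0.746). In SKF it was at 24.2 and 36.8 CPM, which overlaps both groups.

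Of 18 adaptor and trafficking genes tested, 4 were higher and 3 lower at an unadjusted p under 0.05 in SKF+Aβ vs SKF. Among all genes 12% were higher and 10.9% lower. Vps35, a core part of the retromer that returns cargo from endosomes, had the lowest adjusted p of the 81 in any comparison. It was at 93.2 and 122 CPM in SKF and at 164 and 174 in SKF+Aβ (log2 fold change 0.65, SE 0.17, adjusted p 0.0584 in edgeR's test). It was at 155 and 199 CPM in SKF+Aβ+CSP-TTK21, also above SKF (0.72, adjusted p 0.0963). Apbb1, an adaptor that binds the tail of the precursor protein, was at 379 and 393 CPM in SKF, 274 and 298 in SKF+Aβ (-0.44, adjusted p 0.0680), and 337 and 349 in SKF+Aβ+CSP-TTK21. Rtn4, a reticulon of the endoplasmic reticulum, was at 516 and 635 CPM in SKF and 744 and 768 in SKF+Aβ (0.39, adjusted p 0.127).

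Of 15 clearance and lipid genes tested, 1 was higher and 4 lower at an unadjusted p under 0.05 in SKF+Aβ vs SKF. The shares of all genes were 12% higher and 10.9% lower. Ece1, an endothelin-converting enzyme that can cut Aβ, was at 59.7 and 68.8 CPM in SKF and 47.5 and 49.2 in SKF+Aβ (log2 fold change -0.41, adjusted p 0.147 in edgeR's test). Plat, tissue plasminogen activator, was at 129 and 190 CPM in SKF, 168 and 171 in SKF+Aβ+CSP, and 103 and 119 in CSP-TTK21 alone. It was at 125 and 136 CPM in SKF+Aβ and at 101 and 147 CPM in SKF+Aβ+CSP-TTK21, which overlap SKF.

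Of 19 other risk genes tested, 3 were higher and 4 lower at an unadjusted p under 0.05 in SKF+Aβ vs SKF. All genes gave 12% higher and 10.9% lower. Clu, clusterin, an extracellular chaperone, was at 704 and 877 CPM in SKF and 571 and 595 in SKF+Aβ (log2 fold change -0.44, adjusted p 0.102 in edgeR's test). It was at 726 and 809 CPM in SKF+Aβ+CSP-TTK21, 0.40 above SKF+Aβ (adjusted p 0.746). Abca7, a lipid transporter, was at 31.1 and 37.6 CPM in SKF and 18.8 and 25.6 in CSP-TTK21 alone. It was also below SKF in SKF+Aβ, at 25.4 and 27.7 CPM, and in SKF+Aβ+CSP-TTK21, at 20.3 and 27.9 CPM. In SKF+Aβ+CSP it was at 28.9 and 31.4 CPM, which overlaps SKF. Tmem106b, a lysosomal membrane protein, was at 51.0 and 77.7 CPM in SKF and 88.7 and 90.9 in SKF+Aβ (0.48, adjusted p 0.167).

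Of 21 genes of tau kinases, phosphatases and microtubule-associated proteins, 1 was higher and 4 lower at an unadjusted p under 0.05 in SKF+Aβ vs SKF. Beside these stand 12% higher and 10.9% lower over all genes, 22.8% in either direction. The kinases Mark4 and Ttbk1, which can phosphorylate tau, lay lower. Ttbk1 was at 229 and 279 CPM in SKF and 174 and 176 in SKF+Aβ (log2 fold change -0.53, adjusted p 0.101 in edgeR's test). Mark4 was at 124 and 139 CPM in SKF and 97.6 and 107 in SKF+Aβ (-0.37, adjusted p 0.114). Ppp2r2a, a regulatory subunit of the phosphatase PP2A, lay higher, at 98.0 and 116 CPM in SKF and 140 and 149 in SKF+Aβ (0.43, adjusted p 0.112).

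**Figure D5:**
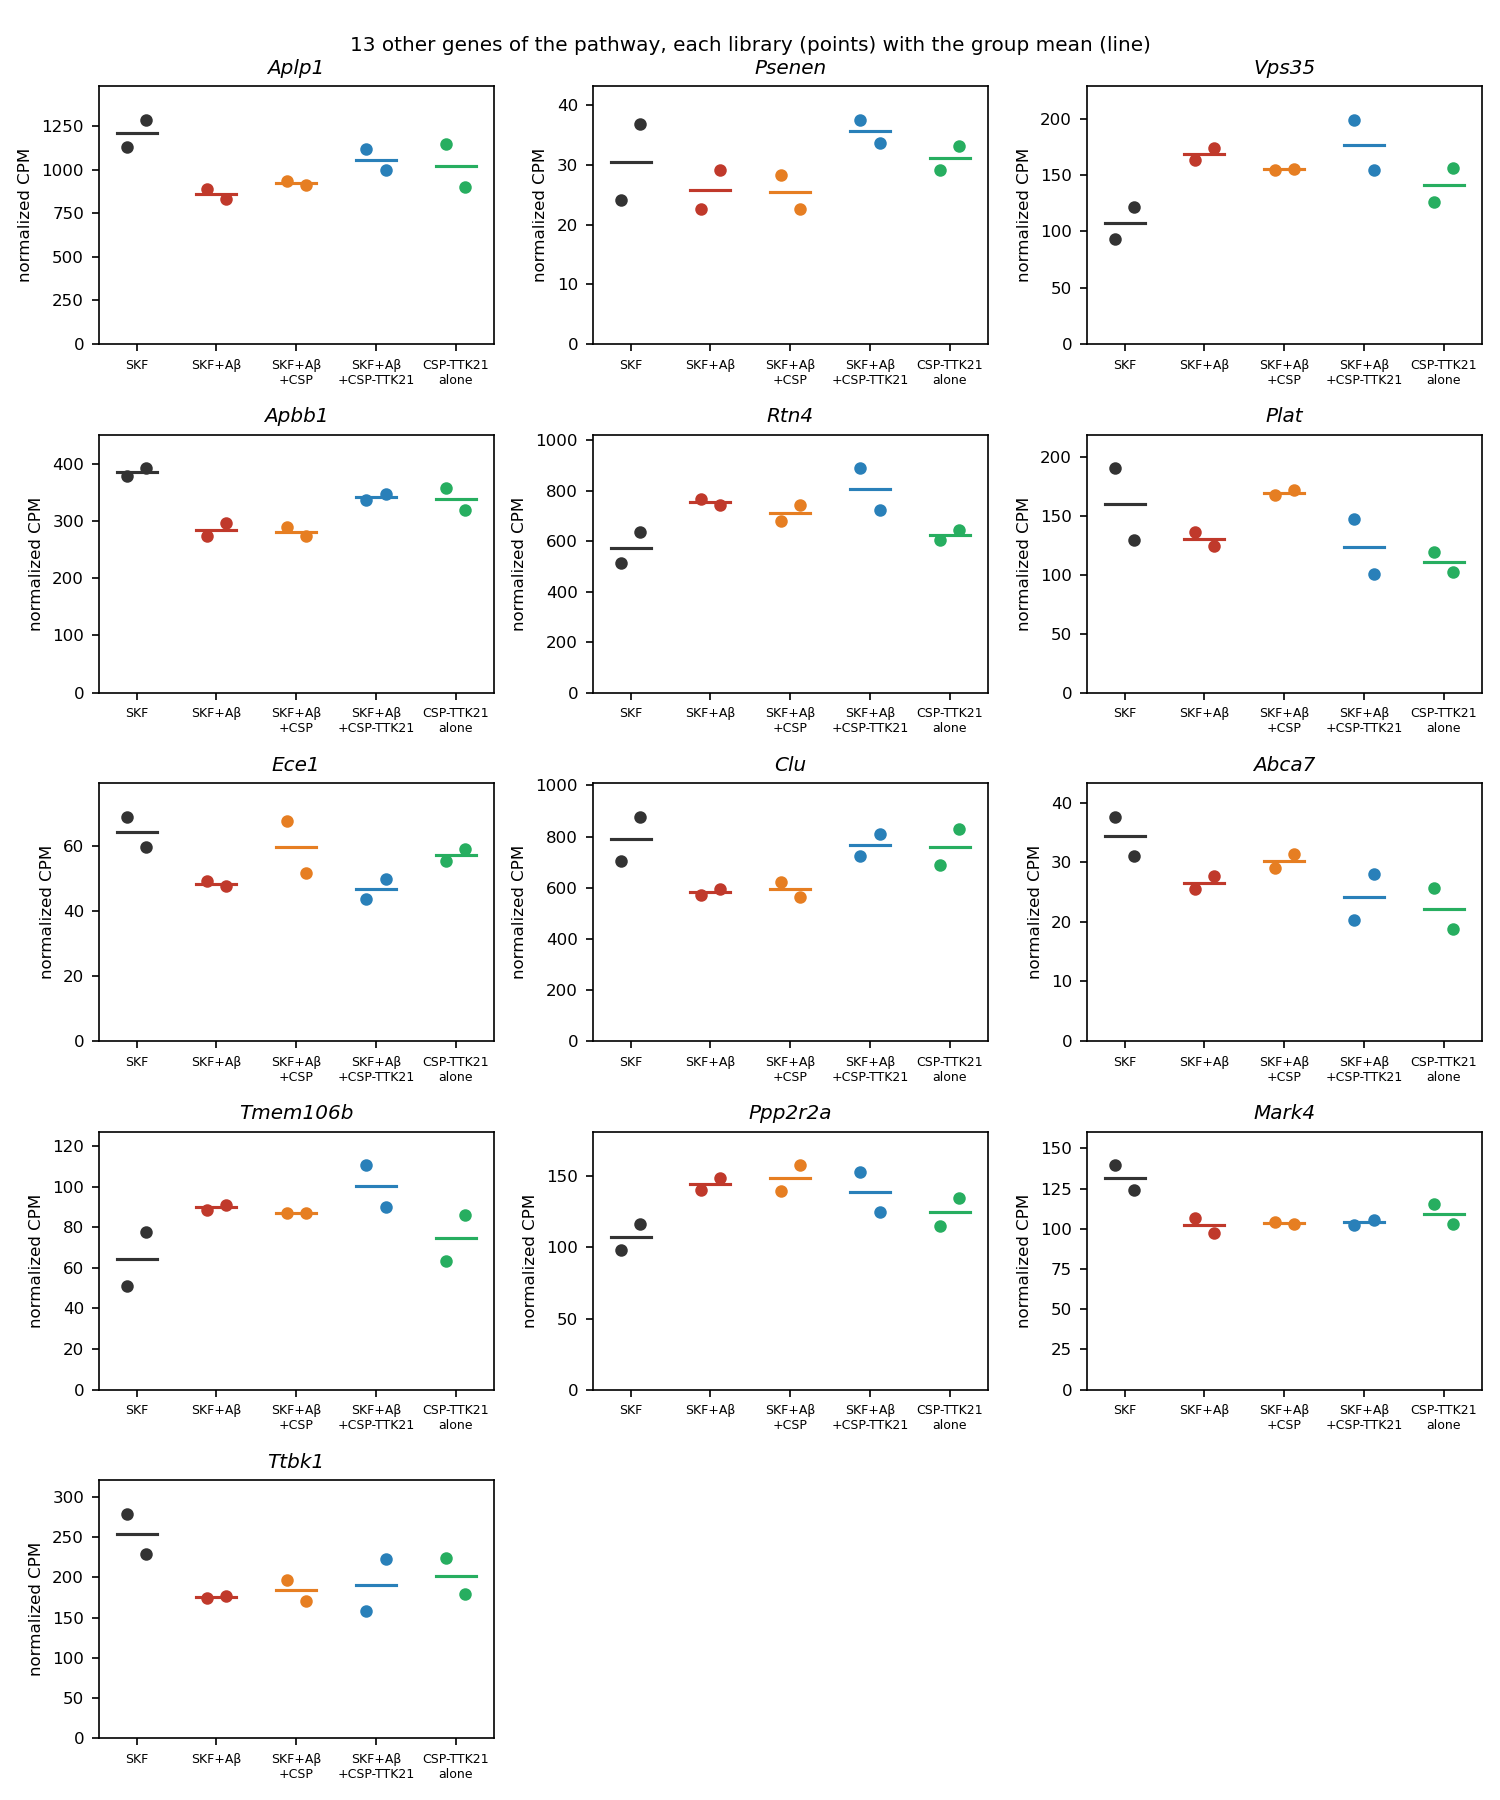
Normalized CPM (vertical axes, from 0) of 13 pathway genes among those with the smallest 5-group p of their lists, with 1 point per library and a line at the group mean (n = 2). Apbb1 lies between 274 and 298 CPM in the SKF+Aβ and SKF+Aβ+CSP libraries and between 320 and 393 CPM in the others, and Vps35 is lowest in SKF.

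Over the 10 libraries, log2 levels of the members varied together in part, which is given as description. Pearson's r was 0.81 for App with Psen2, 0.80 for Ncstn with Adam10 and 0.75 for Apoe with Mapt. It was -0.77 for Mapt with Ide and -0.71 for Ncstn with Bin1. The tested genes most like each member over the same 10 libraries were LOC100363408 (r = 0.99) and Cspg5 (0.98) for Apoe, Hnrnpul2 (0.94) and Dync1h1 (0.90) for App, and Naglu (0.91) and Inppl1 (0.90) for Bace1. For the γ-secretase and α-secretase genes they were LOC497963 (0.99) and Tppp3 (0.96) for Psen2, Gdpd1 (0.95) and Ywhae (0.95) for Ncstn, and Alg5 (0.97) and Pak7 (0.97) for Adam10. For Mapt they were Prrt2 (0.96) and Zfpm1 (0.95), for Bin1 Nacad (0.97) and Sirt7 (0.95), and for Ide Klhl24 (0.98) and Ell2 (0.98). These are the highest of 15032 values over 10 libraries that share their depth and scaling.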

How the data were processed

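RNA of area CA1, dissected from slices of rat hippocampus, was sequenced by the study (ribosomal RNA removed, stranded kit, paired ends). The authors deposited 1 table of read counts per gene, whole numbers that were not normalized. The submitters' processing notes name STAR, RSEM, HISAT2 and Salmon and the build GRCh38, while the study's methods name TopHat2 and Cufflinks with rat and mouse builds. Which program and build made the counts, and whether strand was used, is not given in the sources used here, so reads from overlapping and antisense genes cannot be told apart. Pooled libraries rather than single slices or animals are the unit, 2 a group. The p-values rest on a spread estimated from all 10 libraries, not only from the groups compared.

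Groups and replicate numbers came from the sample titles, and doses, times and ages from the study's methods. Counts were fitted with edgeR 4.0.16 in R 4.3.3 (trimmed mean of M-values scaling, filterByExpr, quasi-likelihood fit, 1 mean per group over all 10 libraries, 8 comparisons, 1 test across the 5 groups). The 15032 genes that passed the filter gave the adjusted p-values. The members and gene lists were chosen with earlier results of these data known. Named genes beside the members were the 3 with the smallest 5-group p in each list, the 2 most correlated with each member, and markers at 0, and 2 of the first kind are not reported here. The highest and lowest marker list medians were named by the same rule. Aldh1l1, Aldoc, C1qa, Snap25, Syt1, Stmn2, Prox1, Cpne4 and Grik4 were named after their values were seen. Listed genes with no row of that symbol (Aph1b and Sorl1 among them, and the markers Pou3f1 and Pecam1) have no value here, and A2m, Zcwpw1 and Abi3 did not pass the filter.

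Replicates were compared, and the 2 libraries of each group differed beyond sampling noise. Alternatives were a replicate block, only the libraries compared, DESeq2 1.42.0, limma 3.58.1 on log2 CPM with a prior count of 2, other scalings, no filter, 10 counts or more in every library, and leaving out each library. The test was checked on simulated counts. Motifs were searched in RefSeq windows by exact match.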

Additional observations from a re-analysis of the deposited data

How the results depend on the processing

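Apoe passed the test in SKF+Aβ against SKF as the 1 of the 9 members, and the count of members past the threshold was 0 with only the 4 libraries compared, 2 with DESeq2 (Apoe and Mapt), 2 with no filter (Apoe and Mapt), and between 0 and 1 when single libraries were left out. The count was 1, Apoe, in SKF+Aβ+CSP against SKF by DESeq2 and with no filter, 1 in the 5-group test by DESeq2 and with no filter, and 1 with no filter in the comparisons of SKF+Aβ+CSP-TTK21 with SKF+Aβ and with SKF+Aβ+CSP, where 0 passed in the report. Without the filter 25251 genes were fitted. The cause of these changes was not tested. The log2 fold change of Apoe in SKF+Aβ against SKF was negative under every alternative, between -1.07 and -0.73. Single-member results gave 1319 values on the same side of the threshold and in the same direction, 6 stronger, 7 weaker and 36 of the opposite sign. None of the 36 had passed the test.

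Of 10 pairs of groups, 4 had a correlation of same-numbered deviations over 0.1 and 7 had one above 0. The range was -0.0691 to 0.237. With 2 libraries a group these values cannot decide whether replicate numbers pair the libraries. With the numbers as a replicate block, Apoe in SKF+Aβ against SKF was at -0.90 (adjusted p 0.0310 in edgeR's test), and the block changed the count of members past the threshold in no comparison.

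Scaling by library totals turned the sign of Psen2 with CSP-TTK21 set against its SKF+Aβ baseline (-0.0027), of Bace1 (-0.023), Mapt (-0.021) and Ide (-0.036) in SKF+Aβ+CSP-TTK21 against SKF+Aβ+CSP, and of Bace1 in SKF+Aβ+CSP-TTK21 against CSP-TTK21 (-0.067, and -0.019 with upper quartile scaling). Library totals also moved the median of all genes in these comparisons, to -0.064, -0.060 and -0.076, so the turned signs came with a shift of all genes. That median moved by less than 0.1 under each scaling.

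Without single libraries the sign turned for differences near 0, given here as log2 ranges. In SKF+Aβ+CSP against SKF+Aβ they were -0.21 to 0.053 for Adam10, -0.23 to 0.11 for Apoe, -0.011 to 0.060 for App and -0.037 to 0.23 for Mapt. In SKF+Aβ+CSP-TTK21 against CSP-TTK21 they were -0.0083 to 0.28 for Adam10, -0.46 to 0.11 for Apoe, -0.050 to 0.066 for Bace1, -0.26 to 0.13 for Bin1, -0.043 to 0.40 for Ide, -0.22 to 0.10 for Mapt and -0.00060 to 0.20 for Psen2. In SKF+Aβ+CSP-TTK21 against SKF+Aβ they were -0.071 to 0.22 for Adam10, -0.11 to 0.071 for Bin1 and -0.021 to 0.15 for Psen2. In SKF+Aβ+CSP-TTK21 against SKF they were -0.26 to 0.064 for App and -0.27 to 0.00057 for Psen2. In SKF+Aβ+CSP-TTK21 against SKF+Aβ+CSP they were -0.0014 to 0.16 for App, -0.040 to 0.13 for Bace1, -0.070 to 0.13 for Ide and -0.081 to 0.18 for Mapt. In SKF+Aβ+CSP against SKF they were -0.16 to 0.12 for Psen2.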
